A study of Mus musculus with 2 samples.

Results

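MiR-191 and miR-425 are microRNAs (miRNAs) made from neighbouring hairpins on mouse chromosome 9, here measured in the embryonic heart. They are represented by 2 of the 1973 gene rows of the miRNA count tables. The rows were selected on measured counts: the row of Gm24083 for the reads on its opposite strand, which is the strand of Mir191, and the row of Mir425 for its sense reads. Their levels are therefore given as a description, with no test. MicroRNA-seq, which counts short RNAs, was applied to heart tissue of healthy B6NCrl embryos at embryonic day 13.5, with males and females pooled and no genetic change or treatment named in the labels. There is 1 group of 2 libraries, called replicate 1 and replicate 2 after their labels, each from its own biosample of the same donor record.

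A miRNA gene is transcribed into a long primary RNA, from which Drosha cuts a hairpin and Dicer a short duplex. One strand of the duplex is loaded into an Argonaute protein and pairs with messenger RNAs mainly through bases 2 to 8 of the miRNA, the seed. MiR-191 and miR-425 are known as a conserved, broadly expressed pair, and miR-191 is often used as a reference in PCR assays of miRNAs. In human cells, miR-425 is known to repress NPPA, the gene of atrial natriuretic peptide, a hormone of heart muscle.

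The mature sequences, from RefSeq on GRCm38.p6 (the mm10 build), are shown because seed and sequence decide which reads and which relatives each gene has. Capitals mark the seed.

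mmu-miR-191-5p: cAACGGAAucccaaaagcagcug

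mmu-miR-191-3p: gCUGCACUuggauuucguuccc

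mmu-miR-425-5p: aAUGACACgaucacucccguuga

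mmu-miR-425-3p: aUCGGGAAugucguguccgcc

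mmu-miR-489-3p: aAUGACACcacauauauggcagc

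The miRNAs of the pair do not resemble each other: the longest run shared by an arm of miR-191 and an arm of miR-425 was 5 nucleotides. No other gene in the RefSeq table carried the seed of miR-191-5p, miR-191-3p or miR-425-3p. The seed of miR-425-5p was shared with 1 other gene, Mir489, which lies in an intron of the calcitonin receptor gene Calcr on chromosome 6. Mir489 held 3 counts in replicate 1 and 9 counts in replicate 2, or 0.539 and 1.49 CPM. CPM are counts scaled to 1000000 summed sense counts of all gene rows. The count of 3 in replicate 1 is at the level taken here as the limit of detection.

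The hairpins are shown with both mature arms in capitals, Mir191 at chr9:108568319-108568392 and Mir425 at chr9:108568777-108568861, both on the plus strand.

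Mir191 hairpin: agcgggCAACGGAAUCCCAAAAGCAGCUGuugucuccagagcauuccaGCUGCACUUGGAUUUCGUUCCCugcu

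Mir425 hairpin: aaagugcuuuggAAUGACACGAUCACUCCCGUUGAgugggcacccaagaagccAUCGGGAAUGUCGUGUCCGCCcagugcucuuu

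The annotated transcript of Gm24083 (ENSMUSG00000092915.1), at chr9:108568295-108568414 on the minus strand, is shown from GENCODE M21 because its row is where the miR-191 reads were deposited. Capitals mark the stretch that is the complement of the whole Mir191 hairpin.

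Gm24083: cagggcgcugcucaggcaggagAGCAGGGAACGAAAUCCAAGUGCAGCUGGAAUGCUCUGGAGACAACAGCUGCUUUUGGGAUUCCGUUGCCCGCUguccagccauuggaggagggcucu

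Gm24083 is 120 nucleotides long and covers the 74 nucleotides of Mir191 with 22 and 24 nucleotides to spare at its ends. Its row held 0 sense counts in both libraries. All 12086 reads of replicate 1 and all 12605 reads of replicate 2 in that row lay on the opposite strand. The row of Mir425 (ENSMUSG00000065579.1) was the mirror image, with 8683 and 8595 sense counts and 0 opposite counts. The gene record of Mir191 itself (ENSMUSG00000105497.1) has no row in the tables, and sense counts alone would give 0 for this miRNA.

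By opposite counts summed over the libraries, the Gm24083 row was number 4 of all rows. Ahead of it were the rows on the other strand of Mir378a (36989 ± 3172 CPM; SD, n = 2), Mirlet7e (4820 ± 314 CPM) and Mir409 (4638 ± 522 CPM). Behind it in summed counts came that of Mir376a with 1340 ± 26.9 CPM. Each of these 5 rows held 0 sense counts. By mean CPM, the opposite counts read for Mir142 (1342 ± 301 CPM) were just above those for Mir376a. Of 32 rows that have a miRNA gene on the other strand in GENCODE M21, 18 held opposite counts in both libraries. Of the 274 rows at a mean of 10 CPM or more without such a gene, 253 held no opposite count in either library, and 269 held under 1% of their reads there. The highest share was 5.06%. Opposite reads made up 0.00210% of the reads of these 274 rows in replicate 1 and 0.00223% in replicate 2.

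The label of the pair, "in Dalrd3", holds in one annotation and not in the other. Dalrd3 encodes a protein that, in human cells, takes part in the methylation of arginine tRNAs. In RefSeq its gene record spans chr9:108567484-108572773 on the plus strand and contains both hairpins, with Mir191 starting 835 nucleotides after the gene's start. In GENCODE M21, Dalrd3 starts at 108569886, which leaves 1024 nucleotides between the end of Mir425 and the gene. There both hairpins lie in the long non-coding RNA gene 4833445I07Rik (chr9:108567533-108569174). Its unspliced transcript holds both in its single exon. In its spliced transcript Mir191 lies in the intron, between the exon that ends at 108568180 and the exon that starts at 108568484. Mir425 lies wholly downstream of this spliced transcript, whose last exon ends at 108568774, with 2 nucleotides between them. The hairpins are 384 nucleotides apart, with Mir191 upstream.

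**Figure D1:**
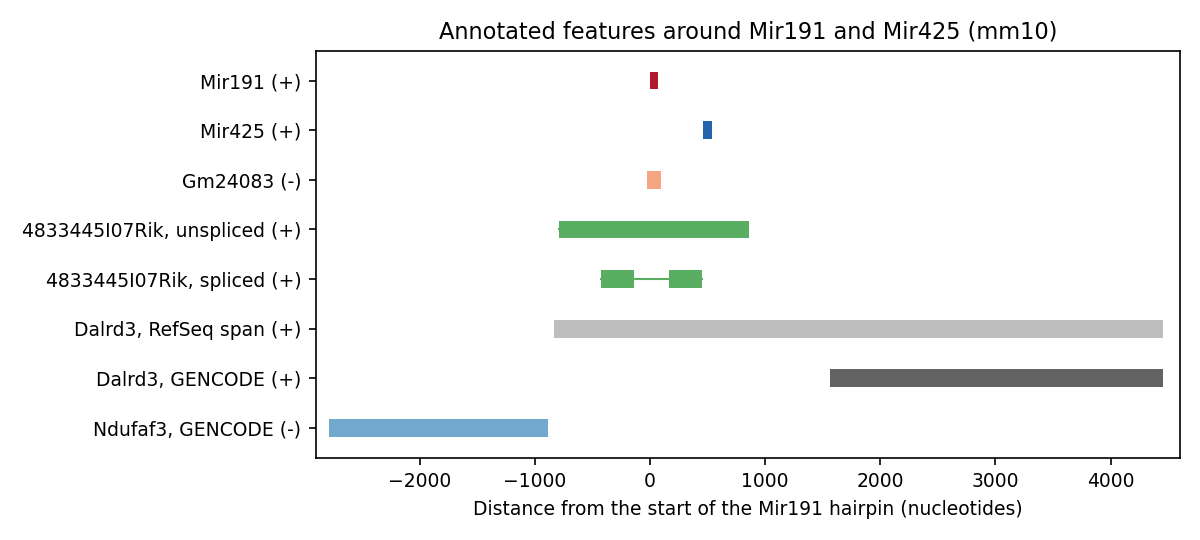
Features around the pair on the mm10 build, by distance in nucleotides from the start of the Mir191 hairpin; boxes are genes or exons, the line is an intron, and + and - give the strand. Both hairpins lie inside 4833445I07Rik and the RefSeq span of Dalrd3, ahead of the GENCODE start of Dalrd3, and Gm24083 covers Mir191 on the other strand.

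None of the 4 mature arms shared a run of 18 nucleotides with any other of 2202 miRNA transcripts in GENCODE M21. MiRNAs with identical copies elsewhere lack this property, and their reads can fall into the class that maps to several places.

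The libraries held 5569959 sense counts in replicate 1 and 6039005 in replicate 2, and each gene row joins the reads of both arms of a hairpin, so the arms cannot be told apart. Mir191 had 2170 CPM (exact 95% interval 2131 to 2209) in replicate 1 and 2087 CPM (2051 to 2124) in replicate 2. Its mean was 2129 ± 58.4 CPM, a count equal to 0.213% ± 0.00584 of the summed sense counts. Those do not include the reads of Mir191, which lie on the opposite strand of its row, although its intervals treat them as included. Mir425 had 1559 CPM (1526 to 1592) in replicate 1 and 1423 CPM (1393 to 1454) in replicate 2. Its mean was 1491 ± 95.9 CPM, or 0.149% ± 0.00959. Mir191 lay above Mir425 in both libraries, and the values of the genes did not overlap. These intervals come from a binomial model of the reads of each library, so they hold counting error alone. PCR copies of a molecule are counted as separate reads, which the model does not allow for.

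By mean level Mir191 ranked 56 and Mir425 ranked 68 of 1973 rows. The ranks were 56 and 68 in replicate 1, and 58 and 69 in replicate 2. Among the 289 rows at a mean of 10 CPM or more, 80.6% lay below Mir191 and 76.5% below Mir425. The median of those rows was 208 CPM, so Mir191 held 10.3 times and Mir425 7.18 times the median. Counting every miRNA on the opposite strand of a row as its own entry moved them to ranks 59 and 71. Together the counts of the pair equalled 0.373% of the sense total in replicate 1 and 0.351% in replicate 2, although that total leaves out the reads of Mir191.

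**Figure D2:**
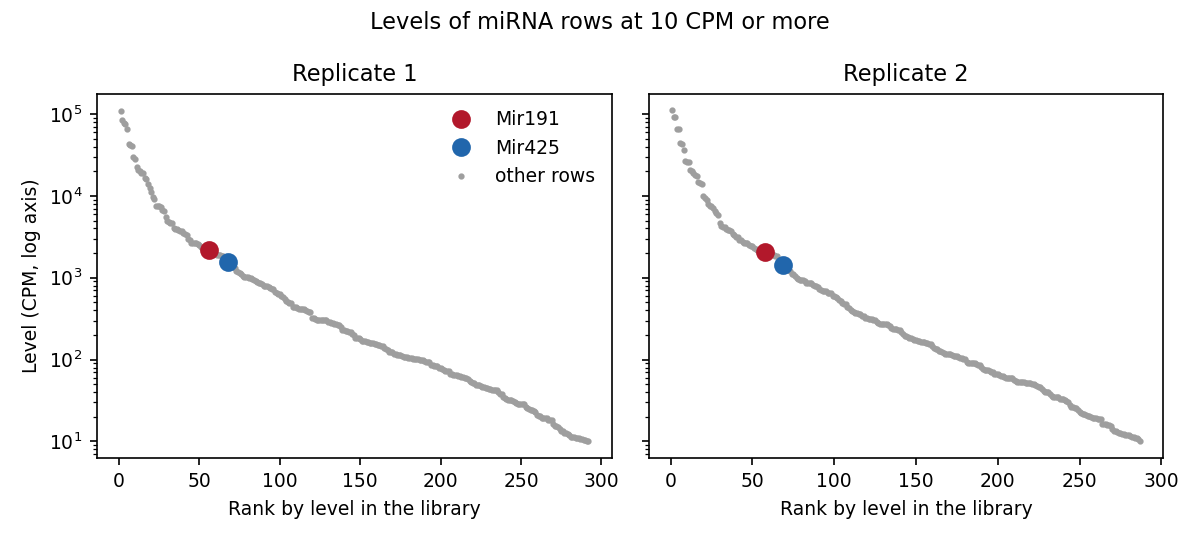
Level in CPM (log axis) against rank for rows at 10 CPM or more, in replicate 1 (left) and replicate 2 (right); each point is a row. Mir191, at 2170 and 2087 CPM, stands at ranks 56 and 58, and Mir425, at 1559 and 1423 CPM, at ranks 68 and 69. Both lie in the upper part of the curve in both libraries, with other rows between them.

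In the order of mean levels, Mir191 was not set apart from most of its neighbours. Directly above it were Mir1983 (2174 ± 180 CPM) and Mir382 (2218 ± 237 CPM), and directly below it Mir541 (2112 ± 17.5 CPM), Mir324 (2077 ± 152 CPM) and Mir107 (2022 ± 196 CPM). The values of all 5 overlapped those of Mir191 between the libraries. Mir181d, at rank 53 with 2240 ± 65.0 CPM, did not overlap it. Mir425 did not overlap Mir139 (1636 ± 108 CPM), Mir15a (1737 ± 170 CPM) or Mir499 (1825 ± 281 CPM) above it, although the lower value of Mir139, 1560 CPM, came within 1 CPM of the higher value of Mir425. It overlapped Mir28a (1456 ± 73.4 CPM) and Mir101b (1420 ± 143 CPM) below it, and not Mirlet7b (1351 ± 100 CPM). Mir499, which lies in a myosin gene of heart muscle, stood at rank 65.

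The rows most like each gene were found by distance in log2(CPM + 1) over the 2 libraries, which can measure closeness of level and little else. Mir541 of the Dlk1-Dio3 cluster was nearest to Mir191, at a distance of 0.032. Next came Mir1983 (0.089), Mir181d (0.13), Mir382, also of the Dlk1-Dio3 cluster (0.14), and Mir324 (0.15). Nearest to Mir425 was Mir28a, in an intron of the adhesion gene Lpp, at 0.052. It was followed by Mir139 in an intron of Pde2a, a phosphodiesterase gene (0.19), Mirlet7b (0.20), Mir101b in an intron of Rcl1 (0.26) and Mir16-1 (0.30).

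The genes of the pair were counted in unequal numbers. Mir191 had 1.39 times the counts of Mir425 in replicate 1 (exact 95% interval 1.35 to 1.43) and 1.47 times in replicate 2 (1.43 to 1.51). The mean log2 ratio of Mir191 over Mir425 was 0.51 ± 0.0533 (SD, n = 2), or 1.43-fold. Mir191 made up 58.2% of the reads of the pair in replicate 1 and 59.5% in replicate 2. The ratio needs no library size, so scaling leaves it as it is. Comparisons between different miRNAs here are of read counts, and whether unlike sequences are captured equally well was not tested.

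This ratio was set beside those of other neighbouring pairs of miRNA genes. A pair was taken as a run of exactly 2 miRNA genes on 1 strand with starts at most 10000 nucleotides apart, both at a mean of 10 CPM or more, on the log2(CPM + 1) scale. There were 26 such pairs. Ordered by the size of the ratio, Mir191 and Mir425 were number 6 from the smallest, and the median pair differed by 8.99-fold (log2 3.17). That contrast depended on which pairs were taken. With both genes at 100 CPM or more, Mir191 and Mir425 were number 6 of 13 pairs, and the median log2 difference was 1.63. With starts at most 1000 nucleotides apart they were number 7 of 27, and the median was 2.24. The next closer pair was Mir15a with Mir16-1, at a log2 ratio of 0.43 ± 0.0489. The next wider one was Mir194-2 with Mir192, at -0.68 ± 0.264. The extreme was Mir99a over Mirlet7c-1, at 9.31 ± 0.191.

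By mean level Mir191 and Mir425 were number 10 of these pairs. The pairs with the highest mean level were Mir143 with Mir145a (log2 6.62 ± 0.0245), Mir99a with Mirlet7c-1, and Mir30e with Mir30c-1 (8.33 ± 0.0920). The upstream gene was higher in 12 of the 26 pairs, Mir191 among them. The ratio of Mir191 over Mir425 had a smaller SD between the libraries than the median pair, 0.0532 against 0.176, and 7 pairs had a smaller one still. In all 7 of these, both genes were at 100 CPM or more, which holds for 13 of the 26 pairs. Within those 13 pairs the SD of Mir191 over Mir425 thus lay above the median.

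In 13 of the 26 pairs a hairpin shares a run of 20 nucleotides with another miRNA gene, and reads that map to several places form a class of their own in the tables. Those pairs had a median difference of 14.1-fold. Among the 13 pairs without such a run, Mir191 with Mir425 was number 4, and the median was 7.53-fold (log2 2.91). The closer ones were Mir181c with Mir181d (0.22 ± 0.00953), Mir298 with Mir296 (-0.28 ± 0.218) and Mir497 with Mir195a (0.32 ± 0.182). This division was made after the data were seen.

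**Figure D3:**
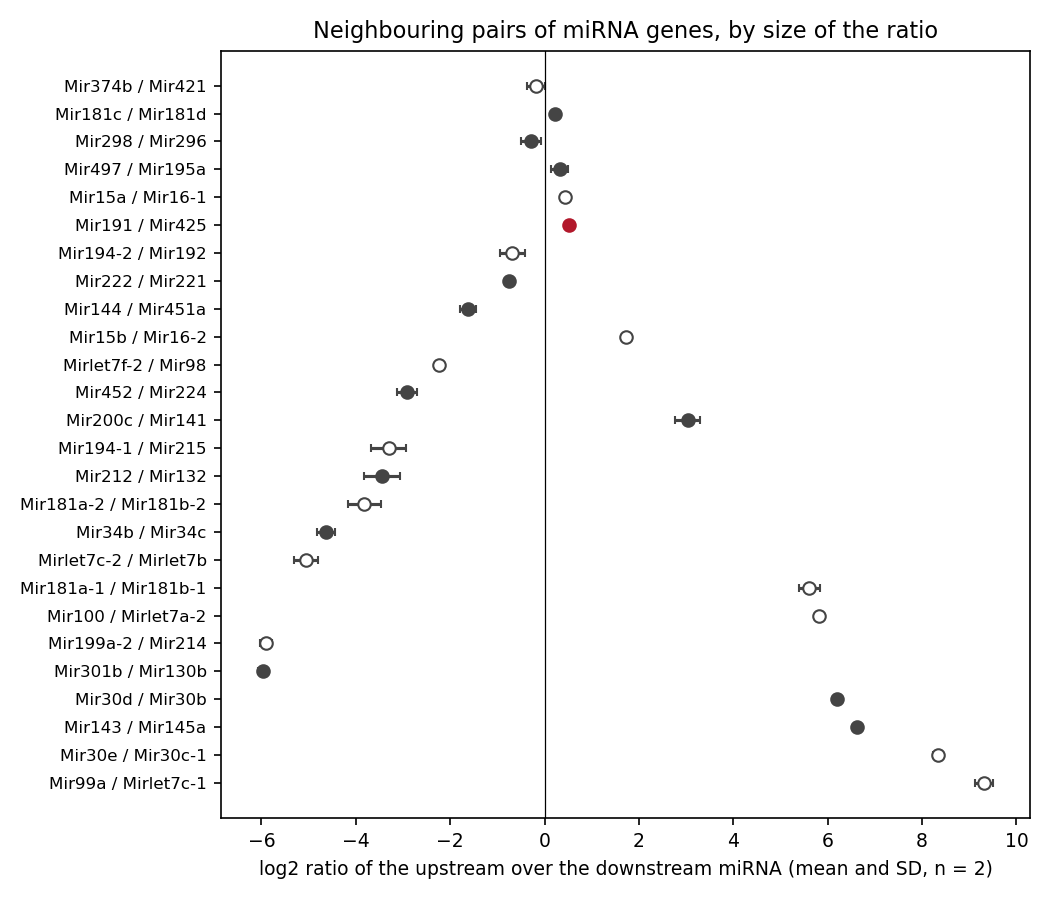
Log2 ratio of the upstream over the downstream gene for 26 neighbouring pairs of miRNA genes, ordered by the size of the ratio; points are means and bars SD of 2 libraries, and open points mark pairs with a hairpin that shares a 20-nucleotide run with another gene. Mir191 over Mir425 (red) stands at place 6 with 0.51, while the pairs at the bottom reach 9.31.

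Mir191 and Mir425 were also set beside a list of 15 broadly expressed miRNA rows, all of which were in the tables. Of these, 6 had a higher mean level than Mir191 and 7 a lower one than Mir425. Mir26b (27782 ± 2723 CPM), Mir30e (24096 ± 2154 CPM), Mir652 (13957 ± 85.5 CPM), Mir93 (7108 ± 622 CPM), Mir423 (3601 ± 238 CPM) and Mir361 (2335 ± 126 CPM) were above Mir191. Mir107 and Mir484 (1863 ± 52.0 CPM) stood between the genes of the pair. Below Mir425 were Mir16-1 (1284 ± 82.2 CPM), Mir320 (624 ± 30.6 CPM), Mir186 (302 ± 14.5 CPM), Mir25 (292 ± 24.0 CPM), Mir16-2 (208 ± 16.7 CPM), Mir103-2 (42.2 ± 10.4 CPM) and Mir103-1 (2.48 ± 0.711 CPM). Mir103 and Mir16 have copies elsewhere in the genome, so their rows may hold only part of their reads.

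**Figure D4:**
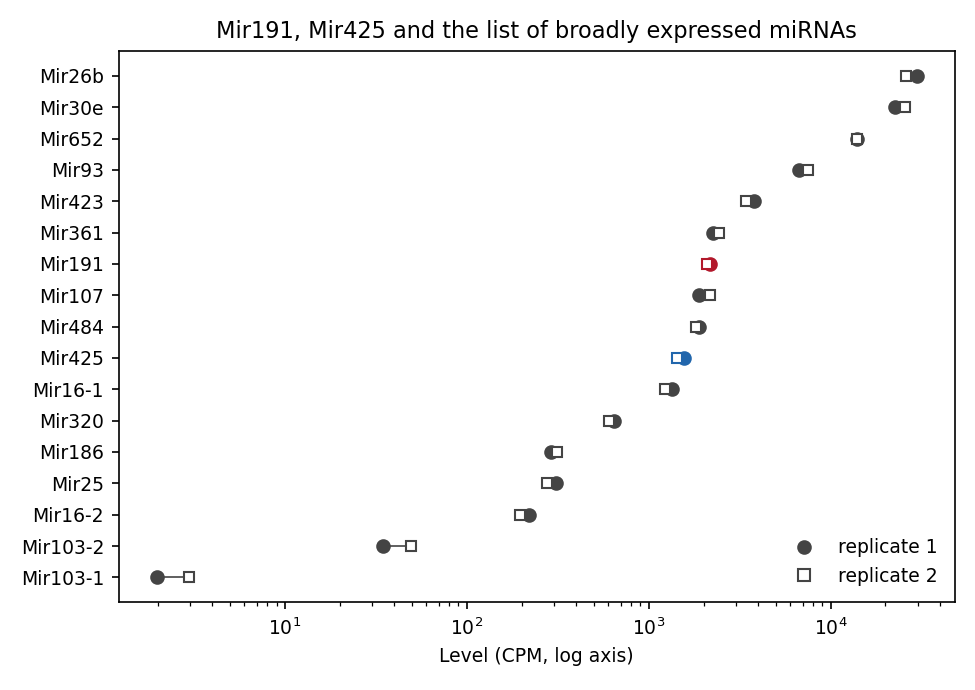
Level in CPM (log axis) of Mir191 (red), Mir425 (blue) and 15 broadly expressed miRNA rows; filled circles are replicate 1, open squares replicate 2. Mir191 and Mir425 lie in the middle of the list, between Mir361 and Mir16-1.

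Whether a gene differed between the libraries was asked of all 289 rows at a mean of 10 CPM or more, with a two-sided exact binomial test on counts and Benjamini-Hochberg adjustment. To be called, a row needed an adjusted p under 0.05 together with a 1.5-fold or larger ratio in either direction. Of the 289 rows, 17 (5.88%) were called, 14 of them higher in replicate 1, and neither Mir191 nor Mir425 was among them. With TMM scaling 16 were called, 8 of them higher in replicate 1, and DESeq2 size factors gave the same counts. The DESeq2 size factors were 1 for both libraries, so that setting compared the counts without a correction for depth. Mir191 had a log2 ratio of replicate 1 over replicate 2 of 0.056 (exact 95% interval 0.020 to 0.092, adjusted p = 0.00458, exact binomial test). Mir425 had a log2 ratio of 0.13 (0.088 to 0.17, adjusted p = 7.26e-09, exact binomial test). On total counts both thus had an adjusted p under 0.05, as did 61.6% of the rows, with ratios of 1.04 for Mir191 and 1.10 for Mir425. For Mir425 this was lost under other scalings, with an adjusted p of 0.263 under TMM and 0.612 under DESeq2 size factors (exact binomial test; range over its alternatives 2.81e-09 to 0.612). Mir191 stayed under 0.05 with its direction reversed, at an adjusted p of 0.0204 under TMM and 0.00226 under DESeq2 size factors (exact binomial test). The test sets the reads of one library against those of the other, and no condition enters it. Its p-values and intervals hold counting error alone, while the common biological coefficient of variation over the 289 rows was 0.125.

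The median row had a log2 ratio of 0.10 itself, so a ratio slightly above 0 was typical. Mir191 lay below that median and Mir425 above it. In absolute size on total counts, 14.2% of the rows had a smaller ratio than Mir191 and 38.8% a smaller one than Mir425. The median absolute ratio was 0.16. With TMM scaling, which shifted all ratios by -0.10, Mir191 turned to -0.047 and Mir425 stayed above 0 at 0.029. With DESeq2 size factors, Mir191 was at -0.061 and Mir425 at 0.015. The direction for Mir191, and the side of 0.05 on which the adjusted p of Mir425 fell, therefore depended on the scaling. Among the 14 broadly expressed rows at 10 CPM or more, the median absolute ratio was 0.15 and 0 were called. Only Mir652 had a smaller absolute ratio than Mir191 on total counts (0.013), and 6 rows had a smaller one than Mir425. Mir484, at 0.057, was nearly level with Mir191. The place of Mir191 depended on the scaling. Mir16-1, Mir320 and Mir423 had ratios of 0.13, 0.10 and 0.14 on total counts. The shift under TMM, or under DESeq2 size factors (-0.12), leaves these rows smaller in absolute size than Mir191 and leaves Mir652 larger.

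**Figure D5:**
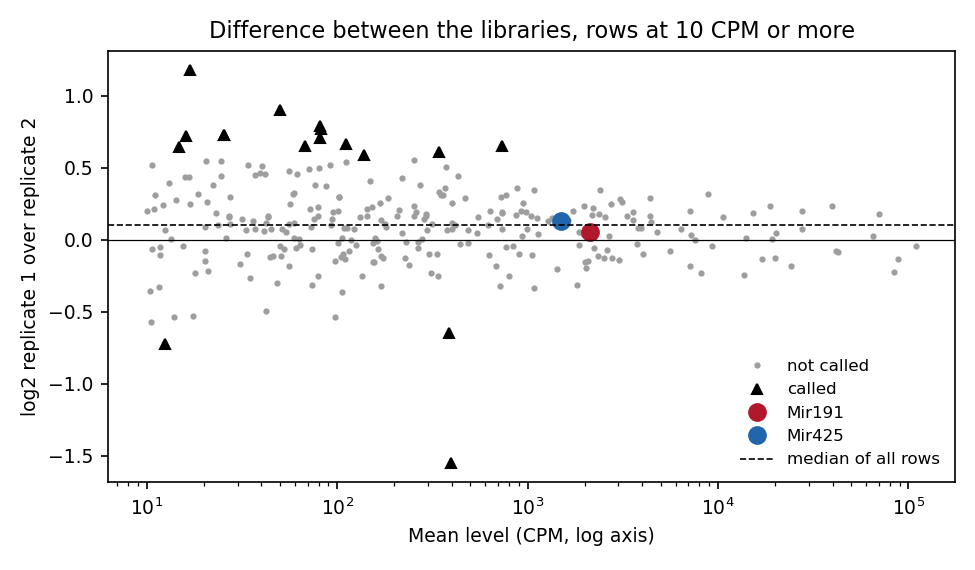
Log2 ratio of replicate 1 over replicate 2 against mean level in CPM (log axis) for 289 rows; triangles are the 17 called rows and the dashed line is the median of all rows, 0.10. On total counts Mir191 at 0.056 and Mir425 at 0.13 lie on either side of that line, and neither is called; with TMM scaling or DESeq2 size factors Mir191 falls below 0.

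The tissue label matched its markers. The heart muscle miRNAs Mir208a, Mir208b and Mir499 were all present, with a sum of 50718 CPM for replicate 1 and 53387 CPM for replicate 2. Together they held 14.4 times the level of Mir191 plus Mir425. Of blood markers, 3 of 3 erythroid and 3 of 4 leukocyte miRNAs had the higher value in replicate 1 on total counts. Most rows leaned that way: the median log2 ratio was 0.10. Of 178 rows with an adjusted p under 0.05 (exact binomial test), 125 were higher in replicate 1. Mir191 and Mir425 were also higher there on total counts, Mir191 by less than the median row. With TMM scaling or DESeq2 size factors, Mir191 was lower there. The erythroid sum was 1261 CPM for replicate 1 and 959 CPM for replicate 2, the leukocyte sum 2207 and 1636 CPM, and no marker was at 0. Mir486 and Mir146 were the called rows of these lists. The liver miRNA Mir122 was called, with 201 CPM for replicate 1 and 591 CPM for replicate 2. The endothelial Mir126a stood at 74876 and 66025 CPM, and the 2 smooth muscle miRNAs summed to 85136 and 93532 CPM. Nearly all of that sum was Mir143, and Mir145a stood at 868 and 931 CPM. Of the neural list only Mir137 was found by its symbol, at 83.1 and 52.7 CPM, and it was called. Their part in the levels of Mir191 and Mir425 was not tested. In whole tissue, fewer cells of a type and less RNA per cell cannot be told apart.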

How the data were processed

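Short RNAs under 30 nucleotides were sequenced from 2 heart libraries. The authors deposited whole-number read counts per miRNA gene, on both strands, the sense strand and the opposite strand, from alignments to mm10 with annotation M4, as the authors' accompanying notes state. The aligner, the counter and the trimming were not given in the sources used here. A table has 1973 gene rows and 4 read classes. Reads that map to several places (26.9% and 28.0%) form a separate class, and it was assumed that no gene row includes them.

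Sense totals covered 45.9% and 49.2% of 12136246 and 12282789 reads. Mir191 was taken as the opposite counts of the row of Gm24083, and every other row as sense counts, except that among pairs and markers a miRNA annotated on the other strand of a row took that row's opposite counts. Coordinates, hosts and symbols were read from GENCODE M21, also on mm10 (1894 of 1973 identifiers matched) and the Dalrd3 span and miRNA sequences from RefSeq. Ratios between libraries had a pseudocount of 1 CPM. A pseudocount of 0.5 CPM, other minimums, TMM factors (edgeR 4.0.16) and size factors (DESeq2 1.42.0) in R 4.3.3 were alternatives. The size factors were 1 for both libraries, so they did not correct the counts for depth. The common biological coefficient of variation was 0.125 over 289 rows. With 1 group of 2 libraries, no test of a condition exists. The exact binomial step was tried on data simulated with counting error alone, which does not cover variation between libraries. Folding used ViennaRNA 2.7.2, other steps Python 3.11.15, scipy 1.17.1, pandas 2.3.3, numpy 2.4.6 and matplotlib 3.10.9.

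The members and lists were chosen with earlier results of these data known. Other genes named were, by rule, the 5 rows nearest to each gene by level, its seed relatives, the 15 broadly expressed rows, the 5 rows with the most opposite counts, the 3 pairs with the highest level and the pairs next to Mir191 and Mir425 in order, and cell type markers. Rank neighbours and the closer pairs without a shared run were added after their values were seen.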

Additional observations from a re-analysis of the deposited data

How the results depend on the processing

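Adding opposite counts to the library total put Mir191 at 2021 CPM, outside 1 SD of 2129 CPM, since the total is larger by construction. The log2 ratio of Mir191 between replicate 1 and replicate 2 reversed to -0.047 with TMM scaling and to -0.061 with DESeq2 size factors. Its adjusted p was 0.0204 with TMM and 0.00226 with DESeq2 (exact binomial test), and the cause was not tested. The log2 ratio of Mir425 kept its direction, but its adjusted p of 7.26e-09 became 0.263 with TMM and 0.612 with DESeq2 (exact binomial test). The count of called rows, 17, became 39 at a minimum of 1 CPM and 45 with no minimum, where more rows were tested, and 2 at a ratio of 2. Under none of the alternatives run was Mir191 or Mir425 called. Their ratios on total counts were 1.04 and 1.10, and the largest shift in log2 from a scaling was -0.12. No alternative could bring them to a 1.5-fold ratio, so this does not bear on stability. With 1 library left out, Mir191 ranged from 2087 to 2170 CPM, Mir425 from 1423 to 1559 CPM, and the log2 ratio of Mir191 over Mir425 from 0.48 to 0.55. With 2 libraries such values always lie within 1 SD of the mean, and counting both strands adds 0 reads, so neither alternative bears on stability. Mir191 with Mir425 was number 6 of 26 pairs as reported, 6 of 13 at 100 CPM, 7 of 27 within 1000 nucleotides, 5 of 28 on sense counts and 4 of 13 without shared runs. The median log2 difference of the pairs, 3.17, became 1.63 at 100 CPM and 2.24 within 1000 nucleotides. On total counts the counting intervals of the libraries overlapped for neither gene. The SD of Mir425, 95.9 CPM, was 20.8 CPM with TMM and 10.7 CPM with DESeq2 size factors.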

Other observations

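The hairpins of Mir191 and Mir425 were alike in base composition, with 54.1% G and C in each, against a median of 51.7% over 1005 RefSeq mouse hairpins. Their predicted folding energies were -35.0 kcal/mol for Mir191 and -31.7 kcal/mol for Mir425, against a median of -32.0 kcal/mol. Per nucleotide, Mir191 was more stable than 77.6% of the hairpins and Mir425 than 35.6%. The complement of the Mir191 hairpin, as in Gm24083, folded at -30.6 kcal/mol, and 0 reads were counted from it in either library.

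By host, 65 of the 289 rows at 10 CPM or more (22.5%), Mir191 and Mir425 among them, lay in a transcript of a GENCODE gene without protein and in none of a protein-coding gene. These 65 rows had a median of 158 CPM, and 15 of them stood above Mir425. That is close to the share over all 289 rows, of which 76.5% lay below Mir425. Rows in protein-coding hosts numbered 123, with a median of 212 CPM and 33 above Mir425. Rows without a host numbered 101, with a median of 226 CPM and 19 above Mir425. With the RefSeq span of Dalrd3 the pair would count among those in protein-coding hosts.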
